A study of Mus musculus with 14 samples.

Results

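The fusion regions described here are all 168 regions listed for SaCas9 combined with guides g1 and g2, both directed at Hao1, the gene for the peroxisomal enzyme glycolate oxidase. They were taken as every line with a chromosome in the table of that treatment, out of 730 regions over the 3 treatments of the series. CAST-Seq was run on DNA of CF-1 mouse embryonic fibroblasts (MEFs) collected on day 6 after nucleofection with 3 µg of SaCas9 protein and 72 pmol of guide RNA. The 4 SaCas9g1+g2 libraries are set against 4 libraries of untreated MEFs, and the other treatments are SaCas9g1 (2 libraries) and SaCas9g2 (4 libraries). The table names the SaCas9g1+g2 libraries g1-2-A-MEF, g1-2-B-MEF, g1-2-old-MEF and Hao1-g1-2B, called A, B, old and 2B from here on. The SaCas9g1+g2 libraries come from 3 cultures, the SaCas9g2 libraries from 2 and the SaCas9g1 libraries from 1, the rest being technical repeats. The letters in the library names give the same numbers, and by them B and 2B would be repeats of 1 culture, which the table does not state. Spread between libraries is therefore partly technical, and wholly so for SaCas9g1.

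CAST-Seq starts from a primer beside the intended cut and reads what that end has become joined to. A nuclease cut can be rejoined with a small deletion, after a large deletion or an inversion, or to another broken end elsewhere in the genome, which gives a translocation. Partner ends can come from cuts at sequences resembling the guide, from breaks that arise without the nuclease, or from repeated DNA. Each region carries its reads in each library and its hits summed over the libraries. Reads are counted after PCR, so that a single fusion can hold very many of them, whereas hits count distinct fusion ends. The authors called a region when its adjusted p-value against the untreated libraries was below 0.05 in at least 2 libraries. A region is listed when that holds in at least 1 library.

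The 2 target sites are shown first, because every score below measures likeness to them. SaCas9 needs a short motif next to the site, the PAM, shown in capitals. The g1 target lies at chr2:134548261-134548287 on the plus strand and the g2 target at chr2:134548206-134548232 on the minus strand (GRCm38).
g1 target: tccgtggatagagcttccatcTGGAAT
g2 target: gtcaacttctgttttaggacaGAGAGT

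The nearest matches outside the target are printed next, with bases that differ from the guide or the PAM, or that are extra, in capitals. The site labelled Furin had the highest score for g1, and the sites labelled Zfp804a and Gm20752 the highest for g2. They lie at chr7:80408635-80408663 (plus strand), chr2:82015077-82015101 (plus strand) and chr3:159018978-159019002 (minus strand).
Furin site, g1: tcAgtggtagagAActtGccaCcgtgaaC
Zfp804a site, g2: gtcaaTAttgttttaggaTattaTt
Gm20752 site, g2: gtaGTttTtgtCCtaggacaagggt

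The on-target region, chr2:134540279-134555169 over the Hao1 gene, took most of each library. Library A held 459219 reads over the listed regions, library B 809867, library old 1356225 and library 2B 1245466. Library A was thus the shallowest. The on-target region took 84.6% of the reads in A, 69.1% in B, 76.8% in old and 67.0% in 2B, and 4843 of the 6104 hits (79.3%) over the 4 libraries. The remaining 167 regions held 1261 hits and 1047019 reads between them. Their median was 4 hits, and 48 of them rested on 2 hits alone.

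Few of these regions came back from one library to the next. Of the 168 regions, 11 were called, which is 6.55% of the table, and 10 of those 11 lay outside the target. In single libraries, 22 of the 168 regions were significant in A (13.1%), 58 in B (34.5%), 32 in old (19.0%) and 73 in 2B (43.5%), the on-target region included. Any read at all was seen in 1 library only for 92 of the 167 regions, in 2 libraries for 46, in 3 for 22 and in 4 for 7. With at least 10 reads required per library, 155 regions were left to 1 library, 7 to 2, 3 to 3 and 2 to 4. The median region had over 99% of its reads in 1 library, as had 146 of the 167. Between B and 2B, the pair sharing the most at 10 reads, 8 regions were shared, which is 14.0% of the 57 in B and 11.1% of the 72 in 2B.

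The 10 called regions outside the target were sorted into 4 kinds: the neighbourhood of Hao1, repeat-rich or ribosomal DNA, the telomeric repeat, and the rest. These kinds overlap, since the called region upstream of Hao1 is itself 97.0% repeat-masked. The region with the most hits lay on chromosome 8 at chr8:123425563-123434366. It had 26888 reads in A, 35626 in B, 63871 in old and 62024 in 2B, from 231 hits. All 4 libraries held it, at 44.0 to 58.6 of every 1000 reads, and no other region outside the target was significant in all 4. The table labels it Galnt2, a gene whose start lies over 3 Mb away, whereas GENCODE places it in introns of Def8 and Gm20388.

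**Figure D1:**
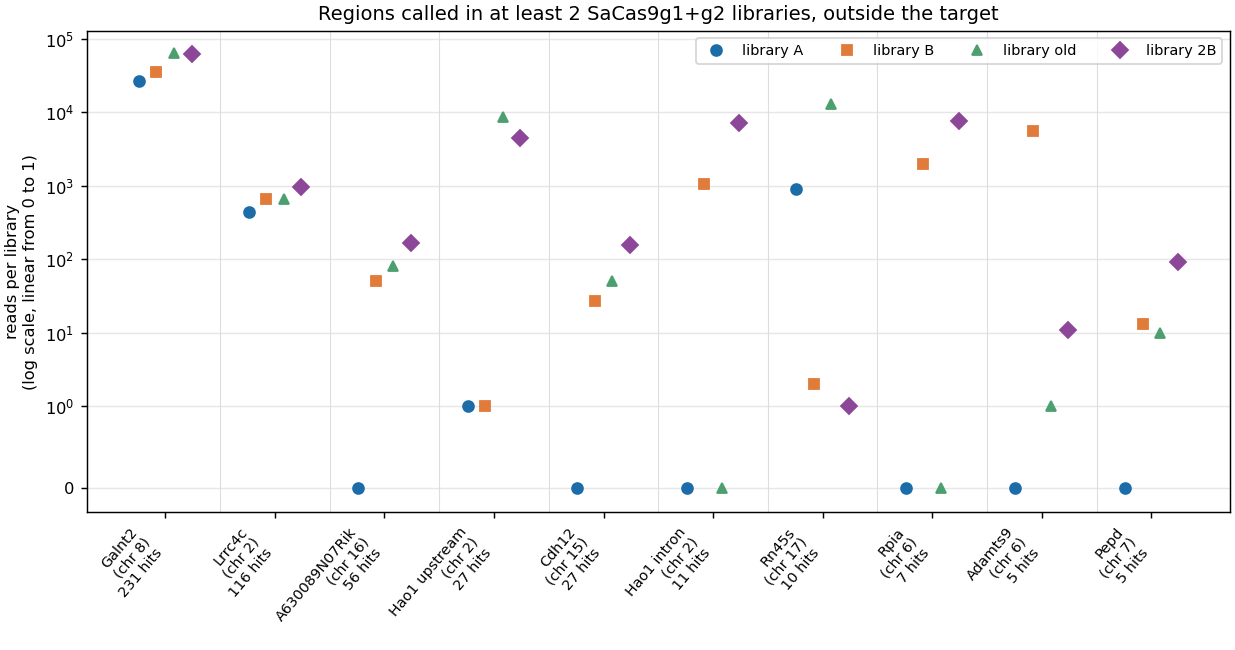
Reads in each of the 4 SaCas9g1+g2 libraries for the 10 called regions outside the target, on an axis that is logarithmic above 1 and linear between 0 and 1, with the hits summed over the libraries under each symbol. Library A is at 0 for 6 of the 10 regions, and regions with similar hits, such as those labelled Rpia (9689 reads from 7 hits) and Pepd (115 reads from 5 hits), differ in reads by more than an order of magnitude.

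Next to the target, 4 further regions lay within 100 kb of the on-target region, and 2 of them were called, where 10 of the 167 (5.99%) were called in all. The region 2.17 kb beyond its upstream edge, chr2:134557335-134558255, had 1 read in A, 1 in B, 8635 in old and 4489 in 2B, from 27 hits. The region 1.73 kb beyond the other edge, in an intron of Hao1 at chr2:134535578-134538550, had 0 reads in A, 1057 in B, 0 in old and 7070 in 2B, from 11 hits. In both, 2 libraries carried nearly all reads and the other 2 had at most 1. The uncalled pair was read mainly in 1 library each. A second Hao1 intron region, 37.4 kb away, had 5778 reads from 9 hits in old and none elsewhere. An intron of Tmx4, a membrane thioredoxin, 70.0 kb away, had 1 read in B and 6336 in 2B. One more region fell within 1 Mb, labelled Mir3090, with 1131 reads from 4 hits in B.

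Repeat-rich DNA gave the called region with the next largest number of hits. The region chr2:98662052-98667547, labelled Lrrc4c, had 439 reads in A, 652 in B, 668 in old and 953 in 2B, from 116 hits. The 4 libraries were close together there, at 0.493 to 0.956 of every 1000 reads. Even so, the region was significant against untreated cells in only 2 of the 4. GENCODE places exons of the predicted genes Gm10800 and Gm10801 in it, and 46.7% of its bases are repeat-masked. A stretch of 805 bp matched at 83.4% identity a region on chromosome 14 labelled Gm5458, which had 1, 4, 1 and 40 reads in A, B, old and 2B. The called region labelled Rn45s (chr17:39843078-39848007), the precursor of ribosomal RNA, had 891 reads in A, 2 in B, 12917 in old and 1 in 2B, from 10 hits. Nearly all its reads were thus in A and old. How reads were placed among similar copies was not tested.

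The telomeric repeat stood out among the regions read in more than 1 library. Telomeres cap chromosome ends with TTAGGG repeats, and mouse chromosomes also carry shorter internal stretches of the same repeat. The motif TTAGGGTTAGGG, on either strand, was present in 8 of the 167 regions (4.79%, exact 95% interval 2.09 to 9.22%, counting error only), against 0.0243% of 5295071 genome windows of 500 bp. The motif was chosen after the regions had been seen, and no test was made of it. Of these 8 regions, 3 were called, against 10 of the 167 (5.99%), and 7 had reads in at least 3 libraries, against 29 of the 167.

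The most frequent of them sat at the very end of chromosome 16, chr16:98107259-98107971, where 203 of its bases are unresolved in the reference. It had 0 reads in A, 50 in B, 80 in old and 165 in 2B, from 56 hits. The called region labelled Cdh12, a cadherin of cell adhesion whose start is far away, had 0 reads in A, 27 in B, 51 in old and 155 in 2B, from 27 hits. The called region in an intron of Pepd, the enzyme prolidase, had 0 reads in A, 13 in B, 10 in old and 92 in 2B, from 5 hits. All 3 were thus absent from A, the shallowest library, and present in the other 3. Whether depth accounts for this was not tested.

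The 5 uncalled telomeric regions had at most 1 read each in A. The one labelled Ankle1, which lies outside genes, had 1, 6, 17 and 13 reads in A, B, old and 2B, from 24 hits. The one in an exon of Ttll10, a tubulin-modifying ligase, had 1, 2, 6 and 14 reads. The one in an intron of Col4a6, a basement membrane collagen chain, had 0, 1, 9 and 53. Each of these was read in at least 3 libraries. Between genes, the one labelled Adcyap1 had 0, 8, 7 and 17 reads. The last, labelled Ccng2, had 2 reads in B and 25 in 2B. Summed over the 8 regions, telomeric reads came to 0.515 per 100000 on-target reads in A, 19.5 in B, 17.3 in old and 64.0 in 2B, with A again lowest at 2 reads. How reads were placed among matching repeats of the genome was not tested.

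Reads per hit separated these regions from nearly all others. The 8 telomeric regions had 1.54 to 23.0 reads per hit, median 5.26, whereas the 159 others had a median of 1135 and reached 5267. Among the 16 regions with fewer than 20 reads per hit, 7 were telomeric. Another 3 of them, labelled Mup7, Scart1 and Clec2e, shared sequence, at 90.7% identity over 214 bp between Mup7 and Scart1 and 92.2% over 230 bp between Clec2e and Scart1. They had 37, 34 and 24 reads in 2B, against at most 6 in any other library. The chromosome 14 region labelled Gm5458 (4.18 reads per hit) and a region labelled Mir21a were also among the 16. The Mir21a region had 114 reads in B, 59 in old and none in A or 2B, and 77.9% of it is repeat-masked.

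**Figure D2:**
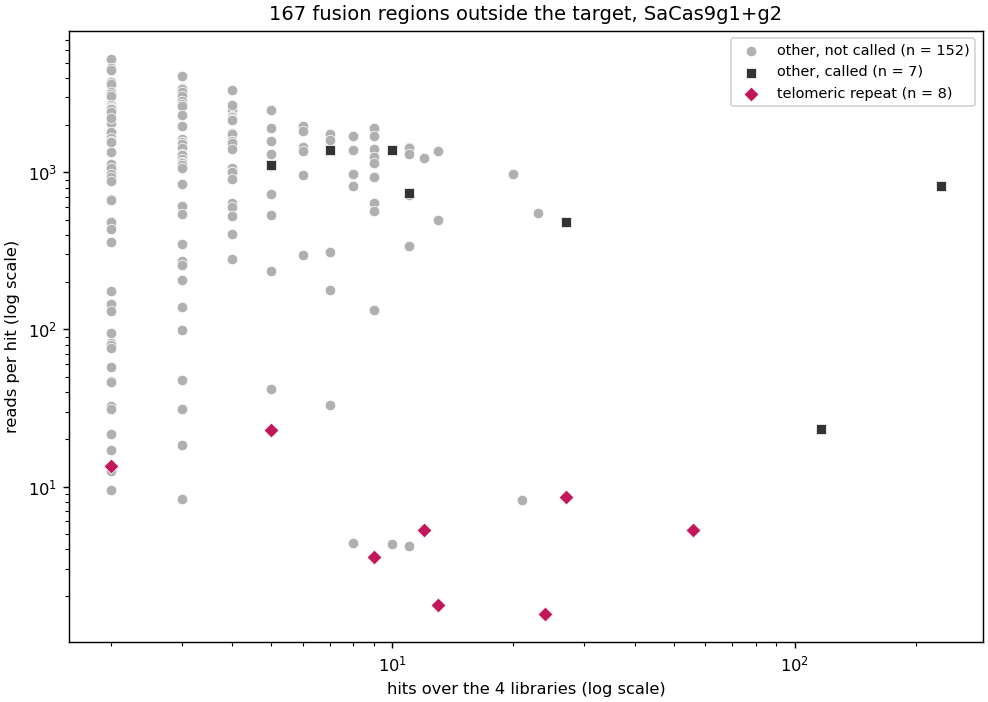
Reads per hit against hits, both summed over the 4 libraries and on log axes, for the 167 regions outside the target; each point is a region. The 8 telomeric regions (diamonds) lie at 1.54 to 23.0 reads per hit, below the bulk of the other regions, whose median is 1135.

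The remaining called regions had neither the telomeric motif nor a place near Hao1, and 7.46% (Rpia) and 14.3% (Adamts9) of their bases are repeat-masked. The region labelled Rpia, a pentose phosphate enzyme, lies between genes at chr6:70218081-70218616 and had 1996 reads in B and 7693 in 2B, from 7 hits, with none in A or old. The region labelled Adamts9, a secreted metalloprotease, lies between genes at chr6:93408701-93409246. It had 5537 reads in B, 1 in old, 11 in 2B and none in A, from 5 hits. Outside B it thus had at most 11 reads in a library.

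By the rules of listing and calling, an uncalled region is significant in exactly 1 library. Most uncalled regions were strong in 1 library and nearly empty in the rest, a pattern that these rules partly fix. The uncalled region with the most reads, labelled 1700017N19Rik on chromosome 10, had 19636 reads from 20 hits in 2B and none in A, B or old. An intron of Dnmt3a, a de novo DNA methyltransferase, had 14783 reads from 12 hits in 2B and none elsewhere. An intergenic region labelled Olfr1290 on chromosome 2 had 15876 reads from 11 hits, again in 2B alone. In library old, the promoter of Cep164, a centriole protein, had 17719 reads, against 1 read in A, 2 in B and 0 in 2B. Library old also dominated at Col4a4, another collagen chain (17167 reads), and at Ebf4, a transcription factor (15794 reads). Library B led at a promoter region labelled Mir7214, with 12622 of its 12627 reads, and at an intergenic region labelled Cstad, with 6499 of 6500 reads.

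Some of the high-read regions shared sequence with a called one. The region in an intron of Ctse, the protease cathepsin E, at chr1:131646294-131646811, had 3 reads in A, 8 in B, 14449 in old and 0 in 2B. Over 518 bp it matched the called chromosome 8 region at 96.7% identity. A region labelled Slco6d1 on chromosome 1 likewise matched the on-target region over 252 bp at 96.8% identity. At lower identity, the regions labelled Fam174a (79.1% over 350 bp) and Tmx4 (77.1% over 288 bp) also matched the on-target region. The region labelled Btbd35f20 matched the called region upstream of Hao1 (79.6% over 334 bp). Whether reads of one place were assigned to the other was not tested.

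Small numbers of reads linked A, B and old, but not 2B. Of the regions with at least 1000 reads in their strongest library, chromosome 8 aside, 76 were strongest in A, B or old. Of those 76, 53 also had between 1 and 10 reads in another library. Among the 47 strongest in 2B, only 1 had 1 to 10 reads elsewhere, and 44 had none in any other library. Conversely, 2B had 1 to 10 reads in only 2 of the 76. For example, the Col4a4 region had 1 read in A and 7 in B beside its 17167 in old. The table's own marker of barcode hopping reads no for every region, and the source of these reads was not tested.

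By the authors' annotation, most regions lay away from coding sequence. Of the 167 regions, 79 (47.3%) were distal intergenic, 57 (34.1%) intronic, 19 (11.4%) in promoters, 9 (5.39%) in exons, 2 in a 3′ UTR and 1 in a 5′ UTR. Promoter regions had a median of 7 hits and distal intergenic regions a median of 3. Direct overlap with GENCODE vM21 placed 81 regions (48.5%) outside genes, 64 (38.3%) in introns and 22 (13.2%) on an exon. Over the chromosomes as a whole those classes take 55.2%, 40.1% and 4.70% of the sequence. A region about 500 bp wide touches an exon more easily than a single base does, so that the exon shares are not on equal terms.

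The gene symbol in the table is that of an assigned start site, over 1 Mb away for 11 of the 167 regions, and often not of the gene hit. The labelled gene overlapped the region for 71 of the 167 and did not for 96. All 4 regions labelled Mir3084-2 lie on chromosome 19, and the one with 5793 reads in A overlaps an intron of Vti1a, a SNARE of vesicle fusion. The one with 1792 reads in B overlaps an exon of Plgrkt, a plasminogen receptor. Coding genes overlapped 80 regions, with a median length of 115 kb. The middle base of all coding sequence and introns in the genome lies in a gene of 139 kb. The table lists a cancer gene within 100 kb for 24 of the 167 regions, among them Dnmt3a, Hdac4, Ptprk, Bcr and Dicer1. None of those 24 was called, where 10 of the 167 (5.99%) were in all, and how much of the genome lies that near such a gene was not computed.

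The chromosome of the target was hit far more often than others. Chromosome 2 held 43 of the 167 regions (25.7%) on 6.68% of the sequence, or 23.6 regions per 100 Mb. No other chromosome had more than 10 regions, and chromosome 3, with 2.50 per 100 Mb, had the lowest density among those with any. No region lay on Y. Every library showed the excess. Counting each region in its strongest library, chromosome 2 took 6 of 19 regions in A (31.6%), 14 of 50 in B (28.0%), 8 of 30 in old (26.7%) and 15 of 68 in 2B (22.1%).

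The density on chromosome 2 was lower at larger distances from the target. Beyond the 4 regions within 100 kb, 1 lay at 100 kb to 1 Mb (55.6 per 100 Mb), 8 at 1 to 10 Mb (44.4), 18 at 10 to 50 Mb (23.2) and 12 beyond 50 Mb (14.2). The other chromosomes together had 124 regions, or 4.88 per 100 Mb, below the farthest part of chromosome 2. The nearest bin holds 1 region and its density is correspondingly uncertain. Most of these regions were seen in 1 library, with Ebf4, 4.21 Mb from the target, among the better covered at 11 hits.

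**Figure D3:**
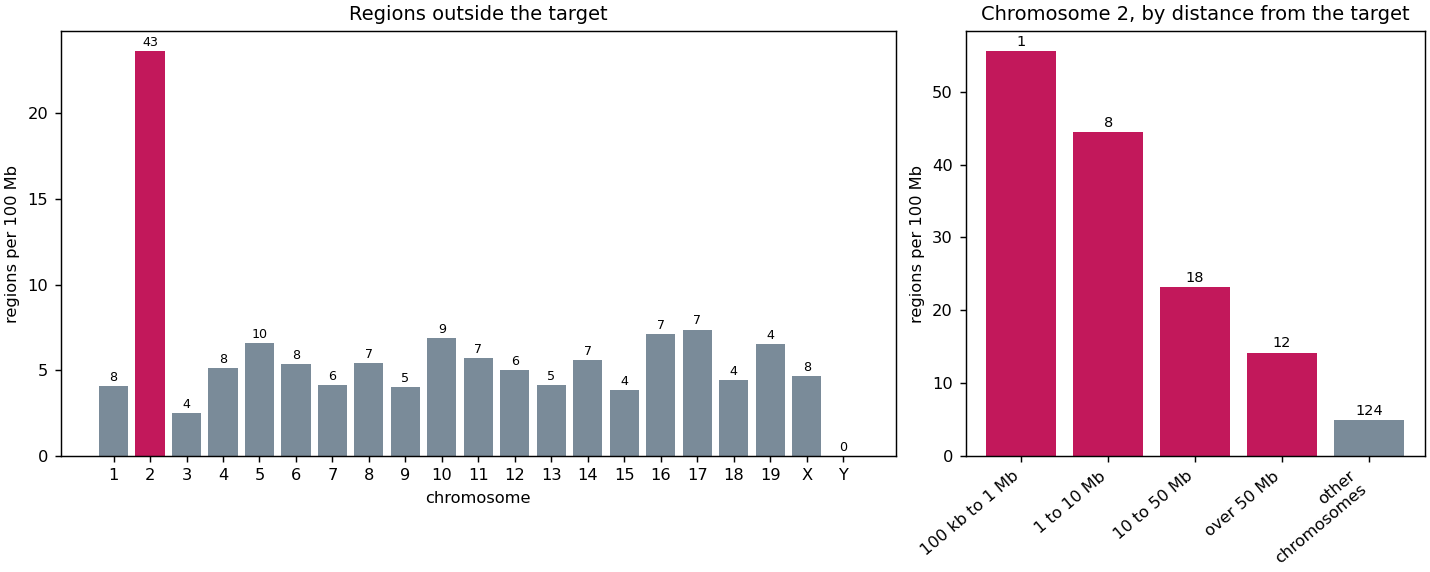
Regions outside the target per 100 Mb of sequence, by chromosome (left, with the number of regions above each bar) and for chromosome 2 by distance from the on-target region (right, beyond 100 kb, with all other chromosomes as the last bar). Chromosome 2 has 23.6 regions per 100 Mb, and its bins fall from 55.6 to 14.2 with distance, above the 4.88 of the other chromosomes.

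Likeness to the guides was low for both. The table gives each region an alignment score for g1 and for g2, on which the perfect target scores 22. Outside the target, g1 scores ran from -1.5 to 8 and g2 scores from -1 to 9, each with a median of 3. The g2 score was the higher in 84 regions, the g1 score in 60, and 23 were equal. A difference of at least 3 in favour of g2 was found in 23 regions and in favour of g1 in 18. All fixed PAM positions matched in 30 of 167 alignments of g1 and 50 of g2. Gaps at its free positions were not counted as mismatches, so complete PAM motifs are fewer. The fewest differences from the guide itself, substitutions and gaps together, were 5 for g1 and 4 for g2, with a median of 8 for both.

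The 2 regions outside the target that the authors class as off-target mediated were those with the top score for each guide. The region labelled Furin, a proprotein convertase, scored 8 for g1 and 1 for g2. It had 1 read in B and 9940 in old, from 4 hits. The region labelled Zfp804a, a zinc finger protein, scored 9 for g2 and 0 for g1, and had 4133 reads from 2 hits in 2B alone. The printed site of Furin has 2 substitutions, 1 missing and 3 extra bases against g1, and 1 fixed PAM position does not match. The printed site of Zfp804a has 3 substitutions and 1 missing base against g2, and 2 fixed PAM positions do not match. Neither region was called. The next g2 scores, 7.5 for Gm20752, 7 for Diaph2 and 7 for Erv3, came from 3, 3 and 2 hits in 1 library each. One region, in the 3′ UTR of the inflammasome gene Nlrc4, is classed as homology mediated, with 6264 reads in old and 1 in B.

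Scores were no higher in regions with more hits. Regions with 2 hits had a median score of 3 for both guides, as had regions with 3 to 4 and with 5 to 9 hits. The 23 regions with at least 10 hits had medians of 2. Among the 10 called regions the medians were 2.5 for g1 and 2 for g2, and the chromosome 8 region scored 6 for both. Among the telomeric regions called, the g1 and g2 scores were 0 and 2 on chromosome 16, 1 and 1.5 at Cdh12, and 1 and 4 at Pepd.

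**Figure D4:**
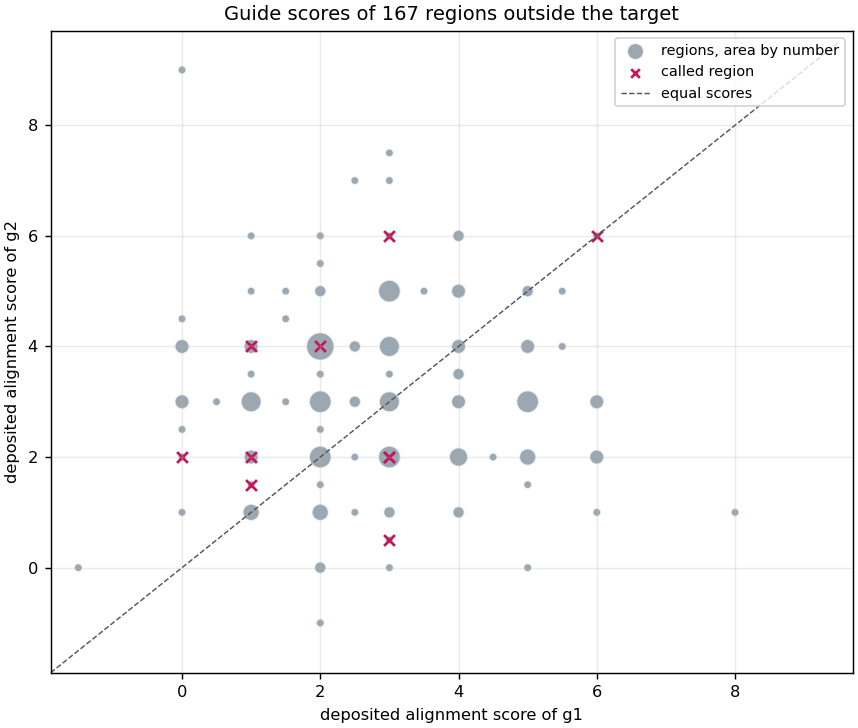
Alignment score of g2 against that of g1, as deposited (no unit, perfect target at 22 and not shown), for the 167 regions outside the target; the area of a circle grows with the number of regions at that point, crosses are called regions and the dashed line marks equal scores. Points spread on both sides of the line, with 84 regions above and 60 below, and the extremes at 9 for g2 and 8 for g1 are not called.

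To see how the combined guides compare with each guide alone, reads away from the target were expressed per 1000 reads of the library. The on-target region, the regions within 100 kb of it and the called chromosome 8 region were left out of the reads counted. The library total covers all listed regions, on-target reads included, so this share also falls where on-target reads rise. Each treatment was read from its own table. The SaCas9g1+g2 libraries gave 95.6 in A, 264 in B, 175 in old and 266 in 2B, a mean of 199.9 ± 81.6 (SD, n = 4). The SaCas9g2 libraries gave 401 to 495, with a mean of 453 ± 45.7 (SD, n = 4). The groups did not overlap, and the difference of mean log2 values was -1.29, a ratio of 0.410 (exact two-sided permutation test over libraries, p = 0.0286, the smallest that 4 against 4 allows, and 0.0571 after Benjamini-Hochberg adjustment over 4 tests). That p counts repeat runs as separate samples and is too small. With libraries of one letter averaged, the difference was -1.46 between 3 and 2 cultures (exact two-sided permutation test, p = 0.2, the smallest possible). The 2 SaCas9g1 libraries gave 42.8 and 88.4, both below all 4 SaCas9g1+g2 libraries, with a log2 difference of 1.59. Both are of 1 culture, so that this difference has no replicate check. The difference from SaCas9g2 did not pass the threshold after adjustment. Relative to on-target reads instead, the log2 difference from SaCas9g2 was -2.10.

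The number of regions significant in a single library gave a similar order. It was 21 in A, 57 in B, 31 in old and 72 in 2B, with a mean of 45.2 ± 23.4 (SD, n = 4). SaCas9g2 libraries had 110 to 145 (mean 134 ± 16.3, SD, n = 4), without overlap, at a log2 difference of -1.72 (exact two-sided permutation test over libraries, p = 0.0286, adjusted 0.0571, again too small for the repeat runs). By culture it was -1.94 (exact p = 0.2, the smallest possible). The SaCas9g1 libraries had 20, just below the 21 of A, and 49, inside the range of SaCas9g1+g2 (log2 difference 0.37). The treatments differed in more than the guides. The first PCR of the SaCas9g2 libraries was annealed at a higher temperature, so guide and protocol cannot be told apart.

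**Figure D5:**
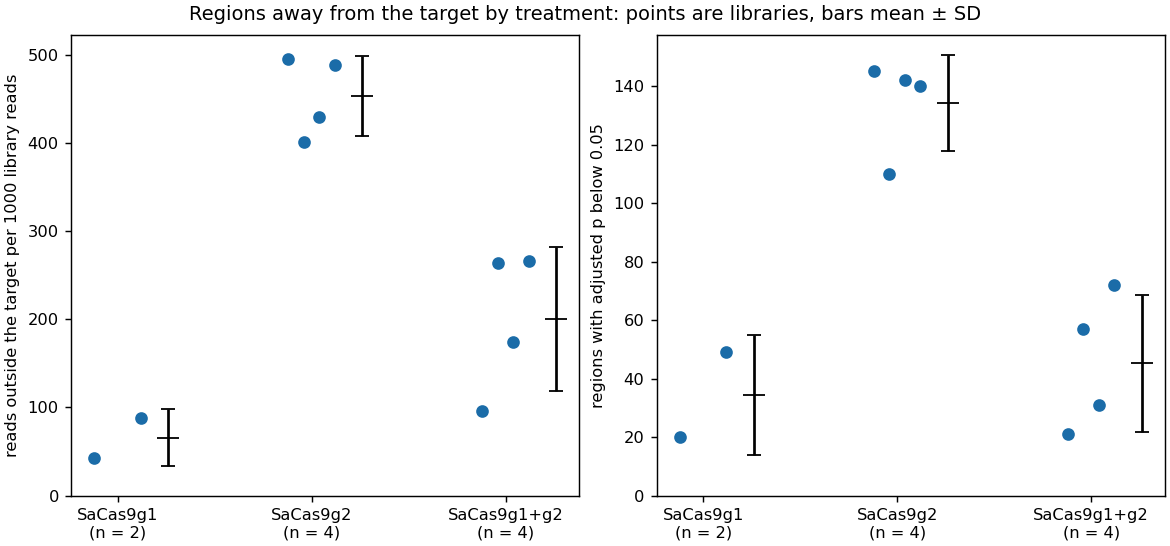
Reads away from the target per 1000 library reads (left) and regions with the authors' adjusted p below 0.05 (right) in each library (points, repeat runs of a culture included) of SaCas9g1, SaCas9g2 and SaCas9g1+g2, with the mean and SD beside them. The SaCas9g1+g2 libraries lie below all SaCas9g2 libraries in both panels, at 95.6 to 266 against 401 to 495 reads and 21 to 72 against 110 to 145 regions.

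The chromosome 16 end and the Lrrc4c region can be set side by side with the single guides. Whether the treatments share untreated libraries is not stated in the labels. The chromosome 16 end had 107, 42, 103 and 99 reads in the 4 SaCas9g2 libraries and was not listed for SaCas9g1. The region labelled Lrrc4c had 9501, 4349, 118 and 2634 reads with SaCas9g2. At its position, 516 and 710 reads were counted with SaCas9g1. Telomeric reads were summed over each treatment's own telomeric regions, 22 for SaCas9g2, 12 for SaCas9g1 and 8 here, so that the sums cover different regions. Per 100000 on-target reads they were 44.2 to 109 with SaCas9g2 and 1.31 and 94.4 with SaCas9g1, against 0.515 to 64.0 here. Telomeric regions made up 4.44% of the regions outside the target for SaCas9g2, 18.5% for SaCas9g1 and 4.79% here. The share of regions on chromosome 2 was 19.4% for SaCas9g2 (96 of 495) and 15.4% for SaCas9g1 (10 of 65), beside the 25.7% given above. No test was made of these values.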

How the data were processed

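The authors made CAST-Seq libraries from DNA of nucleofected and untreated MEFs and sequenced them on a NovaSeq. The submitters' processing notes name Bowtie2 2.3.4.2, bedtools 2.27.1 and the builds GRCh38, hg38 and mm10, and both guides were found in the on-target region of GRCm38.p6 at the positions given. The deposited table holds counts of reads per library and region, total hits, the authors' p-values against untreated cells (used only for calls), their alignment scores and annotation. The 20 other columns of single libraries (hits and unadjusted p-values, over the 3 tables) were not used. Untreated counts were not analysed here, and 3 lines of the table had been emptied for this work.

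Regions were compared with GRCm38.p6 (RefSeq) for motifs, repeat masking and shared sequence (blastn 2.17.0, at least 200 bp) and with GENCODE vM21. Treatments were compared over libraries, and over cultures taken from the letters in the library names, with scipy 1.17.1 by exact permutation (2-sided, threshold 0.05, Benjamini-Hochberg adjustment), in code tested on simulated data. Alternatives changed the denominator, the regions kept, the threshold, the minimum of reads or hits, the annotation and the libraries included. Named regions are all called, off-target or homology mediated regions, the 10 uncalled ones with the most hits and the 10 with the most reads, those read in at least 3 libraries, the highest scores and score differences, and those within 1 Mb of the target. The telomeric motif is the 6-base unit with the longest tandem run in any region. Regions in the telomeric and shared-sequence groups and the cancer genes named were picked after their values were seen. The members and lists were chosen with earlier results of these data known. The sequences of the telomeric stretches are not reported here. Intervals cover counting error only.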

Additional observations from a re-analysis of the deposited data

Results flagged for a closer look

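The called region labelled Adamts9 made up 6.84 of every 1000 reads in library B, against 0 in A, 0.000737 in old and 0.00883 in 2B. The gap between B and the next library was 0.999 of the whole range, above Dixon's 95% critical value for 4 samples. Only called regions and library summaries were examined, and 146 of the 167 regions had over 99% of their reads in 1 library, so that such a gap is common here. Chance marks about 1 in 20 values, and 18 were examined in this way.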

How the results depend on the processing

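The library names share the letters A and B between SaCas9g1+g2 and SaCas9g2, without a statement that a letter marks a shared batch. With the replicate block by letter, the log2 difference was -1.50 for reads (-2.27 in A and -0.74 in B) and -1.86 for significant regions (-2.77 and -0.95), over 2 pairs and with no test. Averaging libraries of one letter gave 1.42 and 0.15 against the single SaCas9g1 culture. These fits were added after the data had been seen. The planned comparison by hits in place of reads was not run, since only the total hits of a region were used. All alternatives run for the reads away from the target and for significant regions kept the direction against SaCas9g2 with adjusted p-values above the threshold wherever tested. Leaving out 1 library at a time gave log2 differences of -1.46 to -0.97 for reads and -2.0 to -1.41 for significant regions. Against SaCas9g1 the ranges were 1.07 to 2.11 and -0.28 to 1.02, the negative value coming from leaving out g1-B-MEF. Regions read in at least 2 libraries numbered 75 with any read and 12 with at least 10 reads, and 35 to 67 without 1 library, with 35 left without B and 42 without old. The count of called regions outside the target was 10, and 4 to 9 without 1 library, with 5 left without B and 4 without 2B. The distal intergenic share fell from 47.3% to 34.7% when weighted by hits and to 36.1% with at least 5 hits. A higher g2 score by at least 3 was found in 13.8% of regions, against 50.3% for any difference. The chromosome 2 share was 24.5% to 27.2% without 1 library and 24.6% with at least 5 hits. The 8 telomeric regions each had reads in at least 2 libraries, so that leaving out 1 library could not lower their count. The 5 uncalled ones among them were significant in 1 library each. Of the 8, 7 had at least 5 hits. The alternatives for called and telomeric regions, and those leaving out a library for chromosome 2, were added after the data had been seen. With 48 regions resting on 2 hits, depth limits what can be said of single regions.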
